A study of Mus musculus with 12 samples.

Results

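The genes described here encode the machinery of fatty acid oxidation and ketone body formation in the liver, together with a few genes that control it. They were chosen by name as a fixed list of 34 genes, out of 20143 genes in the deposited table, and all 34 were found there. Liver RNA was sequenced from 6 wild-type (WT) mice and 6 mice lacking Hsd17b13 (KO), 1 library per mouse, numbered 1 to 6 in each group. Mice of both groups, aged 8 to 10 weeks at the start, ate CDAA-HFD (a high-fat diet short of choline, which produces a fatty, scarred liver) for 12 weeks, so no comparison with a normal diet is possible here. The labels give no allele for the KO, and neither sex nor litter. The Hsd17b13 protein sits on lipid droplets of hepatocytes, and KO against WT is the single comparison of the study.

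Fatty acids reach the mitochondrial matrix as carnitine esters and are shortened there in a repeated cycle of dehydrogenation, hydration, second dehydrogenation and thiolysis, while the longest and the branched chains start in peroxisomes. The acetyl-CoA released can be turned into ketone bodies, which the liver exports. PPAR-alpha, a nuclear receptor activated by fatty acids, drives many of these genes in hepatocytes and is best known for its action in fasting.

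The table gives CPM, read counts scaled to a sum of 1000000 in each library, and the spacing of its low values puts 46.3 to 77.9 reads behind each CPM. Hsd17b13 measured 315 to 393 CPM in WT and 0.956 to 1.40 CPM in KO (log2 difference −7.32 ± 0.08 SE, adjusted p = 1.31e-16, limma), which fits the labels in every mouse. Hepatocyte markers summed to 57400 to 76600 CPM in WT and 58000 to 71400 in KO, over 10 of 10 listed genes. Gene by gene, 9 of the 10 had a positive difference between KO and WT, with a median of 0.12 on the log2 scale and 1 with an unadjusted p under 0.05. The 3 adipocyte and 4 skeletal muscle markers were not listed in the table. Of 4 exocrine pancreas markers only Cela2a, a pancreatic elastase, was listed, at 150 CPM in WT mouse 1, 73.9 in KO mouse 3 and 0.216 to 1.00 in the other 10 mice, so these 2 livers stood apart. Markers of stellate cells and fibroblasts summed to 747 to 1300 CPM in WT and 620 to 793 in KO, and those of cholangiocytes to 260 to 773 and 154 to 320. Most of the cholangiocyte sum was Spp1, a gene on chromosome 5 like Hsd17b13. Its mean was 384 of 440 CPM in WT and 182 of 210 in KO. Sox9, the other tested cholangiocyte marker, had means of 34.2 and 20.3 CPM. In whole liver, fewer cells of a type and less RNA per cell cannot be told apart.

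None of the fatty acid oxidation genes passed the test between genotypes. Differences below are KO minus WT on the log2(CPM + 1) scale, tested with limma on the 9186 genes whose mean reached 10 CPM and adjusted over all of them. Acot1, with a mean of 8.44 CPM, fell below that level, which left 33 genes in the test. Of these, 0 of 33 had an adjusted p under 0.05, against 0.152% of all genes, and the lowest adjusted p was 0.302. An unadjusted p under 0.05 was reached by 3 of the 33 (9.09%), where 9.8% of all genes did so. Those 3 genes were all higher in KO (9.09% against 4.51% of all genes), and 0 were lower (5.29% of all genes). Scaled to hepatocyte markers, 0 of the 33 were higher and 1 lower at that level. Without WT mouse 1 and KO mouse 3, 1 of the 33, Pex11a, was higher (0.26, unadjusted p = 0.0331, limma), and Acads (0.12, unadjusted p = 0.0677) and Acaa1a (0.16, unadjusted p = 0.0668) were not under 0.05. For 0 of the 33 did the KO mice lie wholly above or below the WT mice, against 0.893% of all genes.

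Differences were small for most of the 33 genes, as they were for most of all genes tested. The median over the 33 genes was 0.01 and that of all genes −0.01, with 18 genes positive and 15 negative. A 95% interval lying wholly within 1.25-fold either way (0.32 on the log2 scale) was found for 22 of the 33 genes, or 66.7%, against 74.6% of all genes. They included 5 of 5 acyl-CoA dehydrogenases and 8 of 8 genes of the later mitochondrial steps. Of electron transfer 3 of 3 were included, of ketone bodies 2 of 2 and of the carnitine shuttle 3 of 5. Of the peroxisomal genes 1 of 4 was included, and of those around PPAR-alpha 0 of 4. Acsl1 and Acot2 were not among them.

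**Figure D1:**
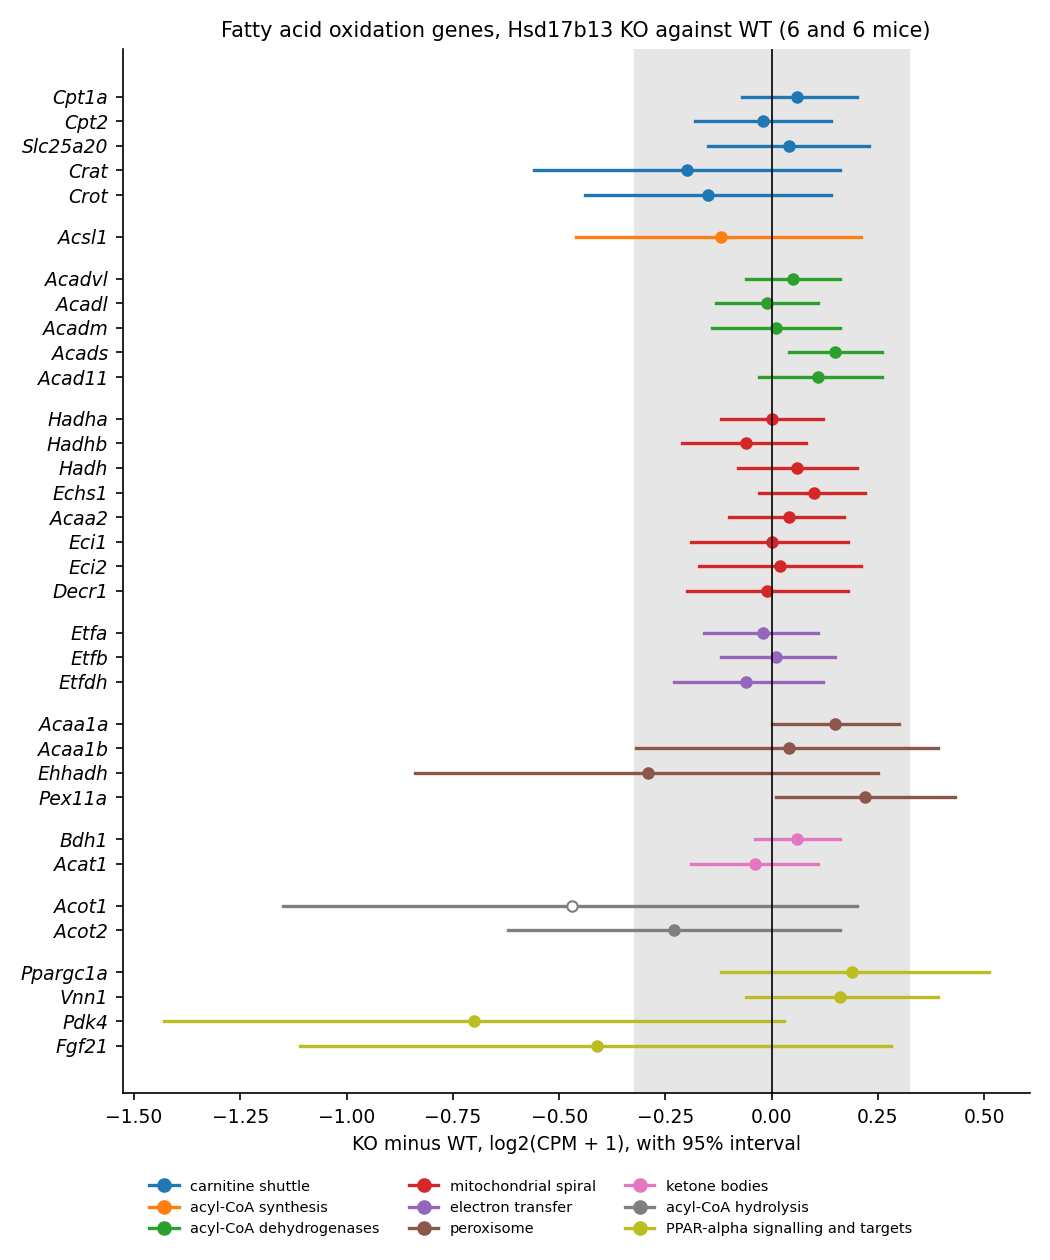
The log2 difference in CPM + 1 between KO and WT livers (horizontal axis) is drawn for each of the 34 genes (vertical axis), coloured by role, with its 95% interval from 6 and 6 mice; the grey band marks 1.25-fold either way and the open circle is Acot1, fitted without the minimum level. Most mitochondrial genes lie inside the band, and Pdk4, Fgf21, Acot1 and Ehhadh reach far outside it on the lower side.

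The carnitine shuttle carries acyl groups into mitochondria. Cpt1a, the outer-membrane carnitine palmitoyltransferase that sets the rate of entry, had a lowest, median and highest level of 583, 649 and 677 CPM in WT and of 600, 677 and 721 CPM in KO. The groups overlapped, and 3 KO mice lay above every WT mouse (difference 0.06 ± 0.06 SE, adjusted p = 0.816). Cpt2, the inner-membrane partner, differed by −0.02 ± 0.08, and Slc25a20, the carnitine-acylcarnitine translocase, by 0.04 ± 0.09. Crat and Crot act on short acyl groups and on chains shortened in peroxisomes, and varied more between mice. Crat measured 36.0 to 57.3 CPM in WT and 24.8 to 51.7 in KO (−0.20 ± 0.17), and Crot 744 to 1180 and 784 to 1270 (−0.15 ± 0.13). Acsl1, which activates long-chain fatty acids to their CoA esters, measured 360 to 630 CPM in WT and 354 to 626 in KO (−0.12 ± 0.15, adjusted p = 0.872).

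The acyl-CoA dehydrogenases open each round of oxidation, each for its own chain length. Acads, the short-chain enzyme on chromosome 5, gave the smallest p of the pathway. Its levels were 123, 130, 142, 126, 137 and 121 CPM in WT mice 1 to 6 and 139, 149, 152, 148, 140 and 135 CPM in KO mice 1 to 6. Of the KO mice 3 lay above every WT mouse, and the rest fell within the WT range. The difference was 0.15 ± 0.05 (95% interval 0.04 to 0.26; unadjusted p = 0.0131, adjusted p = 0.302, limma), so it did not pass over all genes. Acads lies 11.1 Mb from Hsd17b13 on the same chromosome.

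The other dehydrogenases differed less. Acadm, the medium-chain enzyme, had a lowest, median and highest level of 205, 222 and 254 CPM in WT and of 209, 222 and 257 CPM in KO (0.01 ± 0.07, adjusted p = 0.980). Acadvl and Acadl, the very-long-chain and long-chain enzymes, differed by 0.05 ± 0.05 and −0.01 ± 0.06. Acad11, which takes long-chain substrates, measured 222 to 298 CPM in WT and 261 to 299 in KO (0.11 ± 0.07, adjusted p = 0.657). 

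The later mitochondrial steps are carried by 8 genes. Echs1, the short-chain enoyl-CoA hydratase, differed by 0.10 ± 0.06 (adjusted p = 0.655), the largest value of these 8. Hadh, the short-chain hydroxyacyl-CoA dehydrogenase, differed by 0.06 ± 0.06, and the thiolase Acaa2 by 0.04 ± 0.06. Eci1, Eci2 and Decr1, which handle double bonds of unsaturated chains, differed by 0.00 ± 0.09, 0.02 ± 0.09 and −0.01 ± 0.09. The electrons pass to the respiratory chain through Etfa, Etfb and Etfdh, whose differences were −0.02 ± 0.06, 0.01 ± 0.06 and −0.06 ± 0.08.

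Hadha and Hadhb encode the alpha and beta subunits of the mitochondrial trifunctional protein, which is built from both. Hadha had a lowest, median and highest level of 275, 292 and 316 CPM in WT and of 265, 290 and 321 in KO (0.00 ± 0.06), and Hadhb of 68.6, 74.7 and 87.9 and of 67.1, 70.9 and 82.1 (−0.06 ± 0.07, adjusted p = 0.834). In every mouse Hadha exceeded Hadhb in CPM, by a ratio of 3.59 to 4.29 with no allowance for exon length. The genes stand head to head on chromosome 5, and the stretch outside every annotated exon between them, chr5:30155163-30155247 of GRCm38 on the plus strand (RefSeq promoter table, exons from GENCODE), is short. It is shown because the starts of both genes share it, and no letter is in capitals because neither CCAAT nor AGGTCA was found in either orientation.
Hadha-Hadhb: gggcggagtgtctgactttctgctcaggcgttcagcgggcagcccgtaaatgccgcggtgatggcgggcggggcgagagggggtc

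The level of Hadhb depends on where its reads were placed. Gm13910, a processed pseudogene on chromosome 2 (108948806 to 108950233), matched the 1425 coding bases of Hadhb at 99.8% with 3 substitutions and 0 gaps. These were G201A, A393G and G743A, counted from the first base of the Hadhb start codon with the Hadhb base first. A window of 61 bases around the second one shows how little separates the copies, with the differing base in capitals (GENCODE transcripts, coding positions 363 to 423 of Hadhb).
Hadhb: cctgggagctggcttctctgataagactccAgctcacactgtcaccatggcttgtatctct
Gm13910: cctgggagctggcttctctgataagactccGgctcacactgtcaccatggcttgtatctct

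Gm13910 was listed at 111 ± 14.9 CPM (SD, n = 6) in WT and 109 ± 10.7 CPM in KO, above Hadhb itself at 75.5 ± 7.04 and 72.2 ± 5.15. The share of Hadhb in the sum of Hadhb, Gm13910 and a lesser copy, Gm9108, was 38.7% to 42.0% in WT and 38.8% to 41.0% in KO. With the copies added, the sum was 189 ± 21.8 CPM in WT and 183 ± 15.6 CPM in KO. Its difference was −0.04 ± 0.08 (two-sided exact permutation test over 924 assignments, p = 0.665, and 0.665 adjusted over 3 such sums). The ratio of Hadha to Hadhb plus Gm13910 in CPM was then 1.43 to 1.82. Which transcript the reads came from was not tested, so the level of Hadhb is uncertain.

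**Figure D2:**
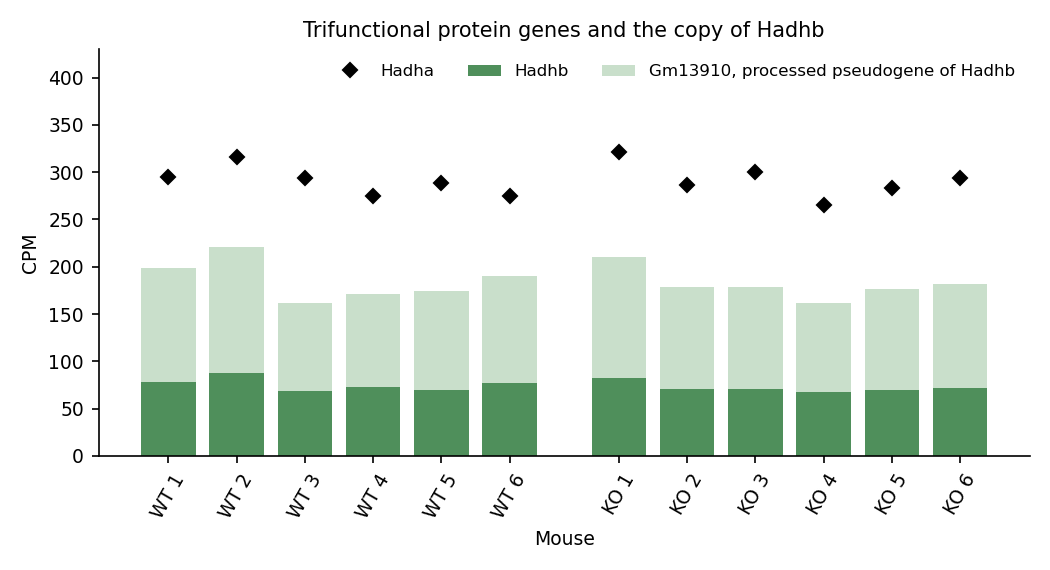
Bars give CPM (vertical axis) of Hadhb and, stacked on it, of its processed pseudogene Gm13910 in each of the 12 mice (horizontal axis), and diamonds give Hadha. In all 12 mice the pseudogene segment is taller than that of Hadhb, and Hadha lies above the stack.

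The peroxisomal genes held both other members with an unadjusted p under 0.05. Acaa1a, a peroxisomal thiolase, measured 159, 164, 190, 154, 163 and 162 CPM in WT mice 1 to 6 and 162, 191, 170, 209, 179 and 190 CPM in KO mice 1 to 6. WT mouse 3 stood above the KO median, and KO mouse 1 within the WT values (0.15 ± 0.07, unadjusted p = 0.0498, adjusted p = 0.509, limma). Its paralog Acaa1b was more abundant, at 505 ± 107 CPM in WT and 517 ± 109 in KO (SD, n = 6; 0.04 ± 0.16, adjusted p = 0.972). The transcripts are 96.6% identical over 1428 bases, so their reads may have been split. The sum of both was 670 ± 111 CPM in WT and 700 ± 112 in KO (0.07 ± 0.14, two-sided exact permutation test, p = 0.649, 0.665 adjusted over the 3 sums). Exons of Acaa1a also overlap those of Myd88 on the opposite strand over 290 bases, and whether the counting used strand is not stated in the labels. Such overlaps with a listed gene occur for 10 of the 34 genes, the longest for Acadvl with Dvl2 over 1151 bases.

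Pex11a, which promotes the division of peroxisomes, measured 49.2, 59.9, 46.0, 44.5, 46.1 and 38.8 CPM in WT mice 1 to 6 and 63.4, 61.1, 48.5, 49.7, 50.3 and 57.7 CPM in KO mice 1 to 6. WT mouse 2 lay among the higher KO mice, and 2 KO mice exceeded every WT mouse (0.22 ± 0.10, unadjusted p = 0.0443, adjusted p = 0.492, limma). The unadjusted p of Acads stayed under 0.05 in 23 of 26 alternative settings, that of Pex11a in 16 of 26 and that of Acaa1a in 12 of 27.

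Ehhadh, the peroxisomal bifunctional enzyme, varied widely between mice. It measured 513, 660, 354, 241, 272 and 255 CPM in WT mice 1 to 6 and 438, 325, 234, 209, 255 and 331 CPM in KO mice 1 to 6. WT mice 1 and 2 exceeded every KO mouse, and the other 4 WT mice lay within the KO range. The difference was −0.29 ± 0.25 (95% interval −0.84 to 0.25, adjusted p = 0.789, limma), so a fall of that size could not be told from none with these mice. Without WT mouse 1 and KO mouse 3 the difference was −0.13.

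**Figure D3:**
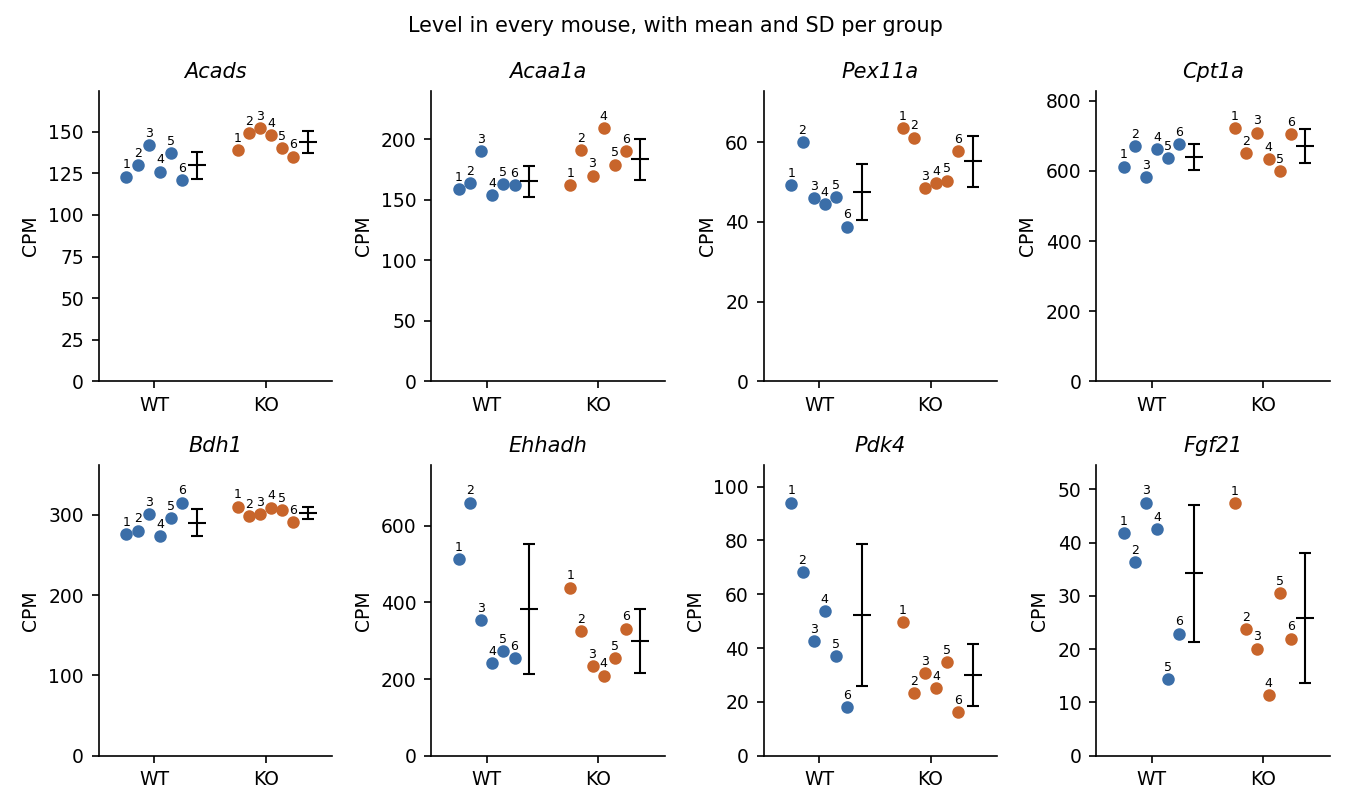
CPM (vertical axis, from 0) in each mouse, numbered, for 8 genes in WT and KO (horizontal axis), with the mean and SD of each group as a bar beside the points. Acads, Cpt1a and Bdh1 form tight clusters, and for Ehhadh and Pdk4 mice 1 and 2 of WT and mouse 1 of KO stand highest in their groups.

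Ketone body genes were among the steadiest. Bdh1, which interconverts acetoacetate and beta-hydroxybutyrate, had a lowest, median and highest level of 273, 288 and 315 CPM in WT and of 291, 303 and 310 in KO (0.06 ± 0.05, adjusted p = 0.765). Its coefficient of variation within groups, 4.07% on average, was the lowest of the 34 genes. Acat1, the mitochondrial acetoacetyl-CoA thiolase, differed by −0.04 ± 0.07 (adjusted p = 0.918).

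Acot1 and Acot2 are acyl-CoA thioesterases, cytosolic and mitochondrial, that release free fatty acids from CoA. Acot1 was low, with 17, 18, 7.93, 5.47, 6.79 and 5.58 CPM in WT mice 1 to 6 and 13.3, 4.16, 5.98, 3.97, 5.30 and 7.76 CPM in KO mice 1 to 6. Fitted without the minimum level, it differed by −0.47 ± 0.32 (adjusted p = 0.666, limma). Acot2 measured 16.5 to 37.0 CPM in WT and 14.7 to 28.7 in KO (−0.23 ± 0.18, adjusted p = 0.759). Their transcripts are 95.1% identical over 1274 bases, and the sum of both differed by −0.31 ± 0.25 (two-sided exact permutation test, p = 0.229, 0.665 adjusted over the 3 sums).

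Upstream bases outside every annotated exon are shown for 4 genes on the strand of the gene (RefSeq promoter table, GRCm38). Acot1, Acot2 and Ehhadh read highest in the same mice, as described further on, and Acadm is one of the genes whose window held AGGTCA. They cover chr12:84009252-84009489 and chr12:83987611-83987860 on the plus strand, and chr16:21787808-21788084 and chr3:153944633-153944893 on the minus strand. Capitals mark CCAAT and AGGTCA in either orientation, read as ATTGG and TGACCT on the other strand.
Acot1: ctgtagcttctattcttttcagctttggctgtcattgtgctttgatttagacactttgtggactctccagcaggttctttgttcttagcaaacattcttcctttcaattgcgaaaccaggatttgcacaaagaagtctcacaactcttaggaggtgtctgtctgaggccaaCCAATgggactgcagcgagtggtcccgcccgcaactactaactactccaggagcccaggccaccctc
Acot2: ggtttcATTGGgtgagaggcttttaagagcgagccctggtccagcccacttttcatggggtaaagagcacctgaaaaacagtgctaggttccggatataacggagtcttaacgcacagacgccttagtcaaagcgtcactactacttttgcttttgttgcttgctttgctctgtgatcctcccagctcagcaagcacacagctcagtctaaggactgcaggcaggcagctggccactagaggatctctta
Ehhadh: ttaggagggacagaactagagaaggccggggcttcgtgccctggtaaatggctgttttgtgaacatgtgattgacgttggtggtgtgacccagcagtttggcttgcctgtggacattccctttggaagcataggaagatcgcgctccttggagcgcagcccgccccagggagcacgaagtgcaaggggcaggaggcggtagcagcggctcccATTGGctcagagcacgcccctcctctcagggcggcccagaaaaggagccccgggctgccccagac
Acadm: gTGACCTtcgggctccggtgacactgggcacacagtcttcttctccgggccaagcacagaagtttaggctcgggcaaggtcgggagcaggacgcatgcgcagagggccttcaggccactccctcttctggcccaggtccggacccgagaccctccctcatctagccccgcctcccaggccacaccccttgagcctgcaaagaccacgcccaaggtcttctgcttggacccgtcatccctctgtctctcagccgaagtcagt

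Acot1 and Acot2 matched at 50.4% of the longer of these stretches when aligned end to end, far less than their transcripts. In the RefSeq windows of 250 bases before to 50 after each start, 29 of the 34 genes had an entry, and Crat, Acaa2, Decr1, Acat1 and Vnn1 had none. PPAR-alpha binds with RXR to paired AGGTCA motifs with a 1-base spacer, often with inexact letters. The exact pair, AGGTCANAGGTCA on either strand, was in 0 of 29 windows and in 0.0481% of 27025 genes. A single AGGTCA, which the pair would also contain, was in the windows of Cpt1a, Acadvl, Acadm and Echs1, or 13.8% against 18.1% of all genes. CCAAT was in 15 of 29, or 51.7% against 41.1%. TATAAA was in that of Fgf21 alone, or 3.45% against 15.7%. A match is a description of letters and no match says only that these letters are not in the window.

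The last 4 of the 34 genes are regulators or targets around PPAR-alpha. Pdk4, which shuts pyruvate dehydrogenase so that cells burn fat, had the largest difference of the 33 genes tested. It measured 94.0, 68.2, 42.6, 53.7, 36.9 and 18.0 CPM in WT mice 1 to 6 and 49.5, 23.3, 30.6, 25.1, 34.8 and 16.2 CPM in KO mice 1 to 6. Of the WT mice 3 exceeded every KO mouse, and WT mouse 6 lay below 5 of the 6 KO mice. The difference was −0.70 ± 0.34 (95% interval −1.43 to 0.03, unadjusted p = 0.0593, adjusted p = 0.536, limma). Without WT mouse 1 and KO mouse 3 it was −0.52. The within-group coefficient of variation of Pdk4 was 44.6%, the highest of the 33.

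Fgf21, a hormone that the liver secretes in fasting and stress, measured 41.8, 36.3, 47.5, 42.5, 14.4 and 22.9 CPM in WT mice 1 to 6 and 47.4, 23.7, 20.1, 11.3, 30.5 and 22.0 CPM in KO mice 1 to 6. The groups shared nearly the whole range, with medians of 39.0 CPM in WT and 22.8 CPM in KO (−0.41 ± 0.32, adjusted p = 0.760). Ppargc1a, a coactivator of PPAR-alpha, measured 12.1 to 15.9 CPM in WT and 11.9 to 23.0 in KO, where mice 2 and 4 stood above every WT mouse (0.19 ± 0.15, adjusted p = 0.751). Vnn1, a pantetheinase and PPAR-alpha target, measured 69.3 to 88.6 CPM in WT. In KO it measured 68.6 to 106, with 4 mice above every WT mouse and 1 below (0.16 ± 0.10, adjusted p = 0.682). The 4 differences thus had both signs, 2 and 2.

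Per kilobase of exon, with the exons of all annotated transcripts of a gene merged, Acaa1b and Acaa2 were the most abundant of the 34. They measured 257 and 255 CPM per kb in WT and 263 and 261 in KO. Crot followed at 183 and 166, and Ehhadh at 128 and 100. Ppargc1a and Acot1 were the lowest, at 2.07 and 2.59 CPM per kb in WT and 2.46 and 1.72 in KO. The order of Acaa1a, Acaa1b, Acot1, Acot2 and Hadhb is subject to the copies described above. Merged lengths also vary with annotation, at 4414 bases for Acaa1a and 1962 for Acaa1b, so the order of all genes is approximate.

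Variation between mice of one genotype followed a shared pattern that was chosen after the values were seen and is given as a description. WT mice 1 and 2 were the 2 highest WT mice in 17 of 33 genes (51.5%), against 7.01% of all genes. KO mouse 1 was the highest KO mouse in 22 of 33 (66.7%), against 17.5% of all genes. Both held in 15 of 33 (45.5%), against 3.11% of all genes. These 15 were Slc25a20, Crat, Crot, Acsl1, Acadl, Hadha, Hadhb, Eci1, Eci2, Decr1, Etfdh, Ehhadh, Pex11a, Acot2 and Pdk4, which cover every role except ketone bodies. With libraries rescaled by median of ratios 6 of 33 held both, against 3.42% of all genes, and with hepatocyte markers as the scale 21 of 33, against 9.37%.

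The median deviation of the 33 genes from their means over all 12 mice was 0.05 and 0.15 in WT mice 1 and 2 and 0.16 in KO mouse 1 on the log2 scale. The lowest were −0.12 and −0.10, in WT mice 4 and 6. Hepatocyte markers deviated by −0.18 and −0.12 in WT mice 1 and 2, by 0.03 in KO mouse 1 and by −0.15 and −0.02 in WT mice 4 and 6. Their highest values, 0.22 and 0.21, were in WT mouse 5 and KO mouse 4, where the 33 genes deviated by 0.00 and −0.06. WT mouse 1 is also the mouse with the most Cela2a, while WT mouse 2 and KO mouse 1 measured 0.27 and 0.298 CPM. The part of tissue makeup in this pattern was not tested.

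Outside the list, the omega-oxidation genes Cyp4a10, Cyp4a14 and Cyp4a31, whose enzymes oxidise fatty acids at the methyl end and are classical PPAR-alpha targets, had the same mice on top. Cyp4a14 measured 264, 348, 142, 77.1, 81.5 and 97.7 CPM in WT mice 1 to 6 and 246, 115, 78.7, 67.7, 74.2 and 101 CPM in KO mice 1 to 6. Cyp4a14 differed between genotypes by −0.47 ± 0.40 (adjusted p = 0.789, limma), Cyp4a10 by −0.33 ± 0.32 and Cyp4a31 by −0.46 ± 0.32. These Cyp4a genes were named for the pattern of mice. Of the 10 tested omega-oxidation genes 5 had a positive difference. They included Cyp4a12a (0.42 ± 0.28, adjusted p = 0.709, limma) and Adh7 (0.21 ± 0.13, adjusted p = 0.669). Both patterns held in 4 of 10 tested omega-oxidation genes and in 3 of 19 other PPAR-alpha targets, against 3.11% of all genes. Elsewhere outside the list, 1 of 22 genes for peroxisomal oxidation, 1 of 8 for carnitine and malonyl-CoA control and 1 of 7 for ketone bodies held both. So did 0 of 25 other acyl-CoA ligases and dehydrogenases, 0 of 9 for pyruvate dehydrogenase control and 0 of 11 for FGF21 receptors and stress. The patterns held in 0 of 21 genes for PPAR-alpha and its co-regulators, and Ppara itself measured 106 and 106 CPM in WT mice 1 and 2, below the other 4 WT mice at 130 to 141 CPM.

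**Figure D4:**
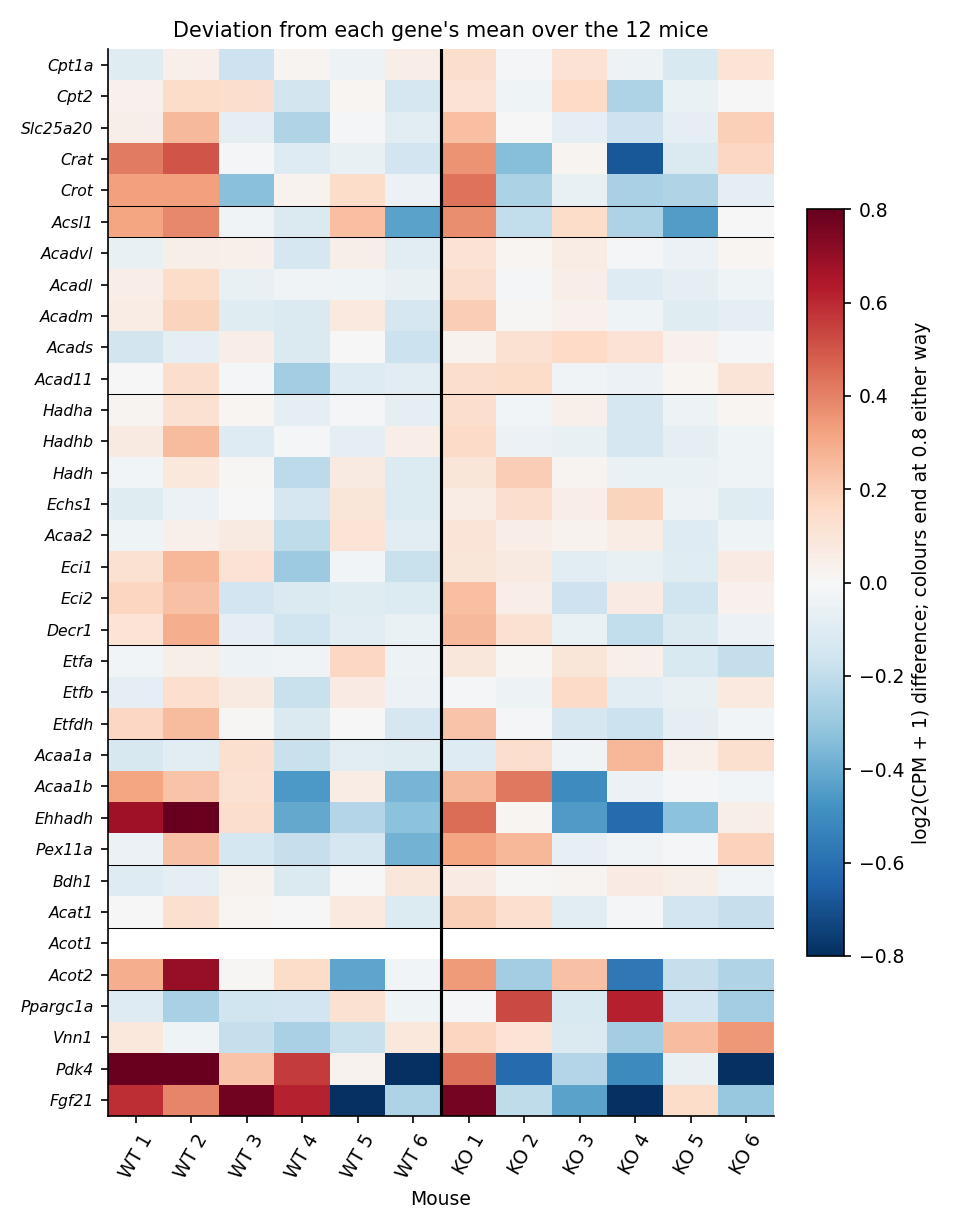
Each cell gives the deviation of 1 gene (rows, ordered by role) in 1 mouse (columns) from the mean of that gene over the 12 mice, on the log2(CPM + 1) scale, with red above and blue below; Acot1, below the minimum level, is blank. The columns of WT mice 1 and 2 and of KO mouse 1 are mostly red, and the strongest colours are those of Ehhadh, Pdk4, Fgf21 and Acot2.

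Within groups the 33 genes varied by a median of 9.31%, against 9.47% for all genes tested, and ranged from 4.07% to 44.6%. Counting error was at most 4.18% for any of them, so most of the spread lay between livers or libraries.

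Of 9 related lists with 157 genes, 132 were tested, 0 had an adjusted p under 0.05, and the median difference was 0.04. An unadjusted p under 0.05 was reached by 9 genes that were higher and 4 that were lower in KO, together 9.85%, against 9.8% of all genes. Among the ketone body genes, 0 of 7 were higher and 1 was lower. That gene was Oxct1, the enzyme that uses ketone bodies and is scarce in hepatocytes, at 17.7 to 30.3 CPM in WT and 14.2 to 19.8 in KO (−0.36 ± 0.12, adjusted p = 0.272). Of 5 tested markers of stellate cells and fibroblasts, 4 were lower in KO and 1, Lrat, was higher (0.44 ± 0.11, adjusted p = 0.158), each with an unadjusted p under 0.05, and their part in this value was not tested.

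Peroxisomal oxidation genes outside the list were positive in 18 of 22 cases, with a median of 0.05, where 45.6% of all genes and 9 of 10 hepatocyte markers were positive. Of the 22, 3 had an unadjusted p under 0.05, all higher in KO, against 4.51% of all genes, and the part of the hepatocyte markers in this was not tested. They were Pecr, a trans-enoyl-CoA reductase (0.21 ± 0.08, adjusted p = 0.353), Nudt7, a CoA hydrolase (0.36 ± 0.16, adjusted p = 0.502), and Acox2, the branched-chain oxidase (0.13 ± 0.06, adjusted p = 0.507).

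For the receptor itself, Ppara measured 106 to 141 CPM in WT and 125 to 160 in KO (0.19 ± 0.09, adjusted p = 0.501), and Pparg differed by 0.14 ± 0.05 (adjusted p = 0.328). Acacb, which makes the malonyl-CoA that blocks Cpt1a, measured 32.1 to 51.6 CPM in WT and 31.1 to 76.9 in KO (0.39 ± 0.18, adjusted p = 0.501). Slc27a1, a fatty acid transport protein, measured 17.9 to 29.1 and 12.9 to 20.2 CPM (−0.43 ± 0.12, adjusted p = 0.188). Fgfr3, one of the receptors that can bind FGF21 with beta-Klotho, measured 50.1 to 90.8 CPM in WT and 35.1 to 49.2 in KO with no overlap (−0.54 ± 0.13, adjusted p = 0.143). Among the other receptor genes, Fgfr1, Fgfr2 and Fgfr4 differed by −0.26 ± 0.13, −0.22 ± 0.09 and 0.00 ± 0.07, and Klb, for beta-Klotho, by 0.15 ± 0.10. Acacb and Fgfr3 lie on chromosome 5, 10.2 and 70.2 Mb from Hsd17b13.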

How the data were processed

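RNA was extracted from liver and made into rRNA-depleted, directional libraries per the labels' protocols (the molecule label says polyA RNA instead). The submitters' processing notes name mm10, Partek 10.0, STAR 2.7.3a and DESeq2 1.14.1 with no role for each. Which tool counted the reads, on which annotation and whether by strand, was not given in the sources used here. CPM values were deposited, each column summing to 1000000. Of low values 71.5% to 76.5% were whole multiples of a common step (within 0.02), so reads could not be rebuilt for a count model. The design assumed normalized counts, and the log-scale test was used unchanged.

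Groups and mouse numbers come from the labels, and each library is taken as 1 mouse from its numbered title. The p-values thus weigh each difference against the spread between these samples. log2(CPM + 1) was compared with limma 3.58.1 in R 4.3.3 (mean of at least 10 CPM, empirical Bayes with trend, two-sided, Benjamini-Hochberg, threshold 0.05). The fit was also run on simulated counts of independent mice with the same dispersion for all genes. That differs from these data, so the run cannot show how the fit performs on them. Permutations used SciPy 1.17.1 in Python 3.11.15. Copies were sought with BLASTN 2.17.0 (95% identity or more across 500 bases or more), positions are 1-based on GRCm38, and counting errors cover counting only. Copies of that identity and length were found for 6 genes of the list. That of Etfb, Gm45233 (99.7% over 626 bases), overlaps Etfb exons on the same strand and had no CPM listed. The genes and lists were chosen with earlier results of these data known. Values are given per mouse for every gene of the list with an unadjusted p under 0.05 and the 3 most variable. For Cpt1a, Acadm, Ehhadh, Bdh1, Pdk4 and Fgf21 they are given at least as lowest, median and highest. From the related lists, some of the 3 genes with the smallest p per list are named, with a few others. Alternatives were other filters, pseudocounts, scalings, weights, a mouse-number block and leaving out mice or chromosome 5.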

Additional observations from a re-analysis of the deposited data

Results flagged for a closer look

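In 4 of 68 groups of 6 mice examined over the 34 genes, 1 mouse stood so far from the rest that its gap to the nearest, as a share of the whole range, exceeded Dixon's critical value at 95%, where chance gives about 1 in 20. Crot was at 1270 CPM in KO mouse 1, and at 784 to 898 in the other KO mice. Hadhb was at 82.1 CPM in KO mouse 1, and at 67.1 to 72.0 in the others. Etfdh was at 223 CPM in KO mouse 1, and at 169 to 189 in the others. Acaa1a was at 190 CPM in WT mouse 3, and at 154 to 164 in the other WT mice. Of the 4, 3 are values of KO mouse 1.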

How the results depend on the processing

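No gene of the list had an adjusted p under 0.05 in any of 900 values over all alternatives. The sign differed from the reported one in 71 of these, over 18 genes, and never for the other 16. The count of genes passing over the whole table, 14, was 29 with no filter, 31 at a mean of at least 1 CPM, 4 at 100 CPM, 27 with median-of-ratios scaling, 35 with library weights, 4 without chromosome 5 and 44 without WT mouse 1 and KO mouse 3. Leaving out 1 mouse gave 9 (WT mouse 3) to 25 (KO mouse 3). The count of list genes with an unadjusted p under 0.05, 3, was 1 under quantile normalization, 1 when scaled to hepatocyte markers (lower, with 0 higher), 1 without WT mouse 1 and KO mouse 3, 1 without WT mice 1 and 2 and KO mouse 1 (both chosen after seeing the data) and 1 to 4 when leaving out 1 mouse (1 without WT mouse 4 or KO mouse 2). The median difference, 0.008, was −0.102 when scaled to hepatocyte markers, where that of all genes was −0.117, and −0.025 to 0.047 when leaving out 1 mouse. The number of genes highest in WT mice 1 and 2 and KO mouse 1, 15, was 7 of 22 at 100 CPM, where fewer genes are tested, and 6 of 33 with median-of-ratios scaling. These settings too were chosen after seeing the data. The cause of the other shifts was not tested.

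With mouse number as a replicate block, 11 genes passed over the whole table, 4 list genes had an unadjusted p under 0.05 and the median was 0.008. The labels do not say whether equal numbers pair the mice, and with 1 mouse per number in each group correlations cannot settle it. Deviations of same-numbered mice correlated at 0.36, 0.16, −0.07, 0.15, −0.51 and 0.39. Of the 6 WT mice 2 correlated best with the KO mouse of their own number, and KO mouse 1 was the best match of WT mice 1, 2 and 4.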
